A study of Homo sapiens with 97 samples.

Results

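RNA near the mitochondrial surface was compared with RNA of the cytosol in human HEK293T cells, an established line derived from embryonic kidney, after late exposure to nocodazole. The comparison rests on 8 of the 97 samples of the series: 4 labelled libraries of OMM cells (the APEX2 enzyme faces the cytosol from the outer mitochondrial membrane) and 4 of NES cells (APEX2 carries a nuclear export signal and fills the cytosol). Each construct had 2 replicates at 30 min and 2 at 2 h of nocodazole, and the samples were chosen by these labels, not by their values. All cells stably expressed their APEX2 fusion, all were incubated with biotin-phenol, and all were pulsed with hydrogen peroxide. The labels give neither the dose of nocodazole nor its timing relative to the biotin-phenol, and they do not say whether a line is 1 clone. Biotinylated RNA was captured and sequenced after poly(A) selection, so a high OMM to NES ratio means that an RNA made up a larger share of the RNA captured at the mitochondrial surface than of that captured in the cytosol. For reference, 12 labelled libraries taken at 3, 6 and 9 min of nocodazole (the early libraries, 2 of each construct at each time), 4 labelled libraries without the drug and 4 unlabelled libraries at 30 min (no peroxide, 2 of each construct) were used.

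Nocodazole binds tubulin and depolymerises microtubules, the tracks along which mitochondria and the endoplasmic reticulum (ER) are spread, and a rise in free tubulin is known to trigger decay of tubulin mRNAs. Many nuclear-encoded proteins of the mitochondrial matrix carry a basic N-terminal presequence, and their mRNAs can be held at the outer membrane while the nascent chain is being made. mRNAs of secreted and membrane proteins are translated on the ER, whose membrane forms contacts with mitochondria.

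The late labelled libraries held 16416712 to 28399273 counts each. Counts of genes of the mitochondrial genome made up 1.01% to 1.26% of each. Replicates of these libraries were less alike than those of the earliest times: the Pearson correlation of log2 counts across genes was 0.61 for OMM at 2 h, 0.74 for NES at 2 h, 0.77 for OMM at 30 min and 0.80 for NES at 30 min, against 0.93 to 0.98 at 3 and 6 min. At 9 min it was 0.78 for OMM and 0.82 for NES. The first OMM library of 2 h lacked any count for 3.88% of the genes that averaged 5 CPM (a gene's count relative to the library's total after TMM scaling, in edgeR's usual unit) or more, and no other late labelled library for more than 0.824%. Values without this library are given where a result rests on it. Among markers that HEK293T cells are known to express, VIM ranged from 287 to 365 CPM and NEFM, INA and KRT18 were counted in every late labelled library, while KRT8 had no count in 2 of them. PAX2, another such marker, ranged from 0.226 to 7.82 CPM. PTPRC, CD3E, HBB, CDH5 and SFTPC, markers of blood, vessel and lung cells, had no count in any of the 8. Of the other 2 markers chosen for other cell types, ALB had no count in 7 libraries but reached 8.42 CPM. COL1A1 was counted in all 8, at 9.17 to 19.8 CPM.

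The first 90 bases of 5 coding sequences are shown because these genes, which encode enzymes of the mitochondrial matrix, had some of the highest OMM to NES ratios below. They were read from the GENCODE 29 transcripts (GRCh38), and capitals mark the codons of arginine and lysine, the basic residues of a presequence.
AASS: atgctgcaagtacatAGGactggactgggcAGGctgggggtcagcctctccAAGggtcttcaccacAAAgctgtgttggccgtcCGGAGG
PDPR: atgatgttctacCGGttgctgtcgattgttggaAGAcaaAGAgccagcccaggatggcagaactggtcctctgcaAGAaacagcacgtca
GLDC: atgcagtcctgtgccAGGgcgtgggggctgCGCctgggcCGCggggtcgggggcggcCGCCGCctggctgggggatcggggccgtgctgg
ALDH18A1: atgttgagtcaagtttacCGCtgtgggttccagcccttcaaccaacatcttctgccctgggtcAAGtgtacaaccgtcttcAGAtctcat
IARS2: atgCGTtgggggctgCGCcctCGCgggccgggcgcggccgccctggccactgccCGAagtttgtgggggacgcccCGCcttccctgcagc
These 30 codons hold 6 arginine or lysine codons in AASS, 5 in GLDC and IARS2, 4 in PDPR and 3 in ALDH18A1, and 0 aspartate or glutamate codons in each of the 5 genes. AASS lies on chromosome 7 (chr7:122075647-122144280, minus strand) and PDPR on chromosome 16 (chr16:70113626-70162537, plus strand). GLDC lies on chromosome 9 (chr9:6532464-6645783, minus strand), ALDH18A1 on chromosome 10 (chr10:95605929-95656706, minus strand) and IARS2 on chromosome 1 (chr1:220094102-220148041, plus strand).

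Coding starts of 3 genes of the secretory route and of 2 motor proteins are also shown. These genes were among those higher in OMM than in NES libraries and encode proteins of other compartments. The capitals again mark arginine and lysine codons.
CTSD: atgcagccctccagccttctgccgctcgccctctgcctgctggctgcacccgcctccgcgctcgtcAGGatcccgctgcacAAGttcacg
GANAB: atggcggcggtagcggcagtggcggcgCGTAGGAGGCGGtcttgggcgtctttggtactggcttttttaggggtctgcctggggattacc
LIPA: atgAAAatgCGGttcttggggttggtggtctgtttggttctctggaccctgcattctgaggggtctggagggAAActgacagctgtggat
KIF1A: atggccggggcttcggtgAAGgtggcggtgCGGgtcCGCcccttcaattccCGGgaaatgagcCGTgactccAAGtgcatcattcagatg
KIF5C: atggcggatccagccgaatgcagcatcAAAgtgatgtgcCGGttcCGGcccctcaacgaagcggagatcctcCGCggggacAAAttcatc
The stretch of CTSD (chr11:1752752-1764573, minus strand) holds 2 basic codons and that of GANAB (chr11:62624826-62646726, minus strand) holds 4, as does that of PDPR, and both hold 0 acidic codons like the 5 matrix genes. LIPA (chr10:89213569-89414557, minus strand) has 3 basic and 2 acidic codons in the stretch. The motor genes KIF1A (chr2:240713761-240821036, minus strand) and KIF5C (chr2:148875250-149026759, plus strand) have 6 and 5 basic codons with 2 and 5 acidic ones.

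After 30 min and 2 h of nocodazole, 490 genes were higher in OMM than in NES libraries and 166 were lower, of 16627 genes tested (2.95% and 0.998%; edgeR's quasi-likelihood test with time as a covariate, adjusted p below 0.05). The genes with the largest fold changes included the matrix enzymes AASS, PDPR, CPS1 and GLDC and the kinesins KIF1A and KIF5C, beside genes of other kinds such as ARMCX4, ARHGEF4 and R3HDM4. The lower genes included cytoskeletal proteins, mitotic proteins and immediate early transcription factors. The median log2 fold change (OMM against NES) over all genes tested was -0.10. Among the 11532 genes averaging 5 CPM or more it was -0.05, with quartiles of -0.32 and 0.29, and 490 (4.25%) and 165 (1.43%) of them were called. Counted without any test, 888 genes had all 4 OMM libraries above all 4 NES libraries (5.34% of those tested) and 861 had them all below (5.18%). Without the first OMM library of 2 h the calls were 705 higher and 301 lower, and they included 478 of the 490 higher genes and 153 of the 166 lower ones. Without the second OMM library of 2 h they were 701 and 469, and over all 8 fits that each left out 1 library the lower calls ranged from 142 to 469. Since each library is a bulk sample, more cells with an RNA near mitochondria and more of it per cell cannot be told apart. The calls at 2 h alone were 34 higher and 2 lower (0.24% and 0.0141% of 14185 genes), and those at 30 min alone were 338 and 26 (2.19% and 0.168% of 15442).

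**Figure D1:**
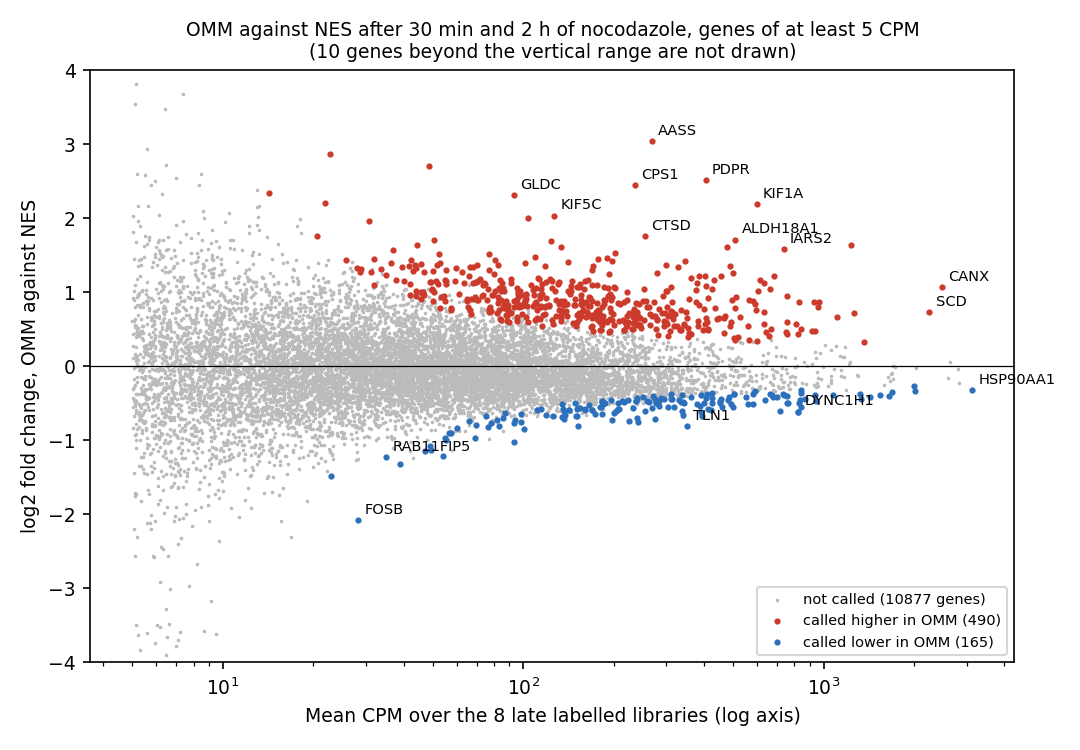
Log2 fold change of OMM against NES (vertical axis) and mean CPM over the 8 late labelled libraries (horizontal log axis), 1 point per gene of at least 5 CPM, with called genes in colour. Called genes lie on both sides of 0, with 490 higher and 165 lower, and the highest of the well-expressed ones include AASS, PDPR and KIF1A. 10 genes beyond the vertical range are not drawn.

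Enzymes of the mitochondrial matrix had some of the largest differences. AASS, which catalyses the first steps of lysine breakdown, measured 544 and 481 CPM in the OMM libraries of 30 min and 446 and 445 CPM in those of 2 h, against 46.7, 63.4, 58.2 and 63.6 CPM in the NES libraries in the same order. All 4 OMM libraries stood far above all 4 NES libraries, a log2 fold change of 3.04 ± 0.133 (SE; edgeR's adjusted p = 1.35e-09). PDPR, the regulatory subunit of the phosphatase that reactivates pyruvate dehydrogenase, measured 814, 760, 614 and 573 CPM in OMM and 113, 156, 111 and 99 CPM in NES libraries. Its OMM values were lower at 2 h than at 30 min but never near the NES values, and its log2 fold change was 2.52 ± 0.116 (edgeR's adjusted p = 1.94e-09). CPS1, the carbamoyl phosphate synthetase of the urea cycle, measured 381, 416, 423 and 372 CPM in OMM against 72.4, 63, 64.2 and 92 CPM in NES libraries, a log2 fold change of 2.45 ± 0.136 (edgeR's adjusted p = 2.04e-08).

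GLDC, the glycine decarboxylase of the glycine cleavage system, measured 144, 155, 145 and 176 CPM in OMM and 31.2, 27.4, 26.1 and 40.4 CPM in NES libraries. The groups did not overlap, and the log2 fold change was 2.31 ± 0.18 (edgeR's adjusted p = 1.19e-06). GLDCP1, a pseudogene of GLDC with 25.9 to 45.8 CPM in OMM and 5.33 to 13 CPM in NES libraries, had a log2 fold change of 2.21. Reads shared between GLDC and its copy may have been split between them, so the value of the pseudogene is uncertain. ALDH18A1, which makes the precursor of proline, measured 782, 900, 700 and 733 CPM in OMM against 245, 241, 223 and 240 CPM in NES libraries, a log2 fold change of 1.71 ± 0.0945 (edgeR's adjusted p = 2.04e-08). PYCR1, which completes proline synthesis, was higher by 0.69 on the log2 scale. With AASS, GLDC, ALDH18A1 and PYCR1, 4 of the 35 tested genes of amino acid and one-carbon metabolism were higher in OMM and 0 lower, while the median of the list was -0.12. ALDH6A1 and ABAT of the same list lay below NES in every OMM library (log2 fold changes of -0.67 and -1.21) without passing the test.

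Of the 55 genes of mitochondrial gene expression, 8 were higher and 0 lower, with a median log2 fold change of 0.15. LARS2 and IARS2, the mitochondrial leucyl- and isoleucyl-tRNA synthetases, led them. LARS2 measured 728, 689, 757 and 695 CPM in OMM and 217, 219, 262 and 246 CPM in NES libraries. IARS2 measured 1066, 923, 1396 and 1043 CPM in OMM against 396, 386, 340 and 346 CPM in NES libraries. For both, every OMM library stood clear of every NES library, and the log2 fold changes were 1.61 and 1.59 (edgeR's adjusted p = 3.49e-08 and 7.86e-07). The other called members were FASTKD2, a regulator of mitochondrial RNA (1.37), the elongation factors GFM2 (1.14), TUFM (0.67) and GFM1 (0.64), and, named after their values were seen, the tRNA synthetases TARS2 (0.80) and AARS2 (0.78).

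Several other mitochondrial groups held 0 to 2 called members beside many that were not called. Over all genes tested 2.95% were called higher, and 4.25% of those averaging 5 CPM or more, so counts this small do not set these groups apart. Of 30 genes of the citric acid cycle and its regulators, 2 were higher and 0 lower, PDPR among them. PMPCA, a subunit of the peptidase that removes presequences, was the single call among 22 chaperones and proteases (0.60), MRPS18B among 78 proteins of the mitochondrial ribosome (0.89) and the ADP/ATP carrier gene SLC25A6 among 42 SLC25 carriers (0.51). Among 34 outer membrane proteins CPT1A, which forms acylcarnitines for import (1.16), and AKAP1, an anchor of protein kinase A (0.96), were higher. Import machinery (28 genes) and fatty acid oxidation (19 genes) held 0 calls by edgeR, with 1 and 0 members at an unadjusted p below 0.05 and 1 and 0 calls by DESeq2. TOMM20, a receptor of the import pore, measured 1123 to 1262 CPM in OMM and 970 to 1187 CPM in NES libraries, and these ranges overlapped (log2 fold change 0.14, edgeR's adjusted p = 0.433).

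Of 73 tested genes of the respiratory chain, 7 were higher and 0 lower, with a median of 0.22: NDUFB9 of complex I (1.34), COX6A1 (1.09), COX8A (1.02), COX4I1 (0.68) and COX7C (0.59) of complex IV, ATP5MC1 of the ATP synthase (0.70) and, named after its value was seen, UQCRQ of complex III (0.77). NDUFB9 measured 101, 102, 71.1 and 108 CPM in OMM against 33.5, 34.7, 37.5 and 45.7 CPM in NES libraries. ATP5MC1, with 68.8 to 97.2 CPM in OMM and 45.5 to 54.6 CPM in NES libraries, was the least firm of the 7 calls (edgeR's adjusted p = 0.047). It was not called with a replicate term or without any one of 6 libraries, including the first OMM library of 2 h.

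mRNAs made inside mitochondria gave no call between the constructs. The 13 genes of the mitochondrial genome had a median log2 fold change of -0.05 and 0 calls by edgeR, with 0 at an unadjusted p below 0.05 and 0 calls by DESeq2. MT-CO1, a subunit of cytochrome c oxidase, measured 2512 to 2984 CPM in OMM and 2501 to 3062 CPM in NES libraries. MT-ND6, a subunit of complex I read from the other strand of the mitochondrial genome, measured 18.1 to 52.1 CPM in OMM against 44.9 to 62.5 CPM in NES libraries, again with overlap (log2 fold change -0.40, edgeR's adjusted p = 0.65).

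A pair of kinesin genes stood with the matrix enzymes. KIF1A, a motor that carries synaptic vesicle precursors along microtubules, measured 1002, 1006, 973 and 945 CPM in OMM and 216, 214, 234 and 198 CPM in NES libraries. The 8 values formed tight, separate groups, a log2 fold change of 2.19 ± 0.0914 (edgeR's adjusted p = 1.34e-09). KIF5C, a kinesin-1 heavy chain, measured 189, 182, 219 and 228 CPM in OMM against 47.2, 51.4, 33.8 and 66.4 CPM in NES libraries, a log2 fold change of 2.04. KIF1A and KIF5C were the members of the list of 52 microtubule motors and binding proteins that were higher. KIF5B, the widely expressed relative of KIF5C and named after its value was seen, was lower (-0.41). The largest remaining log2 fold changes named by the rule were those of the guanine nucleotide exchange factor ARHGEF4 (2.70), ARMCX4 of an armadillo repeat family (2.87), R3HDM4 (2.01), the xylosyltransferase XYLT2 (1.97), the endosomal SNARE protein STX8 (2.35) and the membrane glycoprotein GPM6A (1.76). STX8 rested on 12 to 45.8 CPM in OMM and 3.25 to 7.46 CPM in NES libraries, and it was not called without the second OMM library of 2 h or the first of 30 min.

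**Figure D2:**
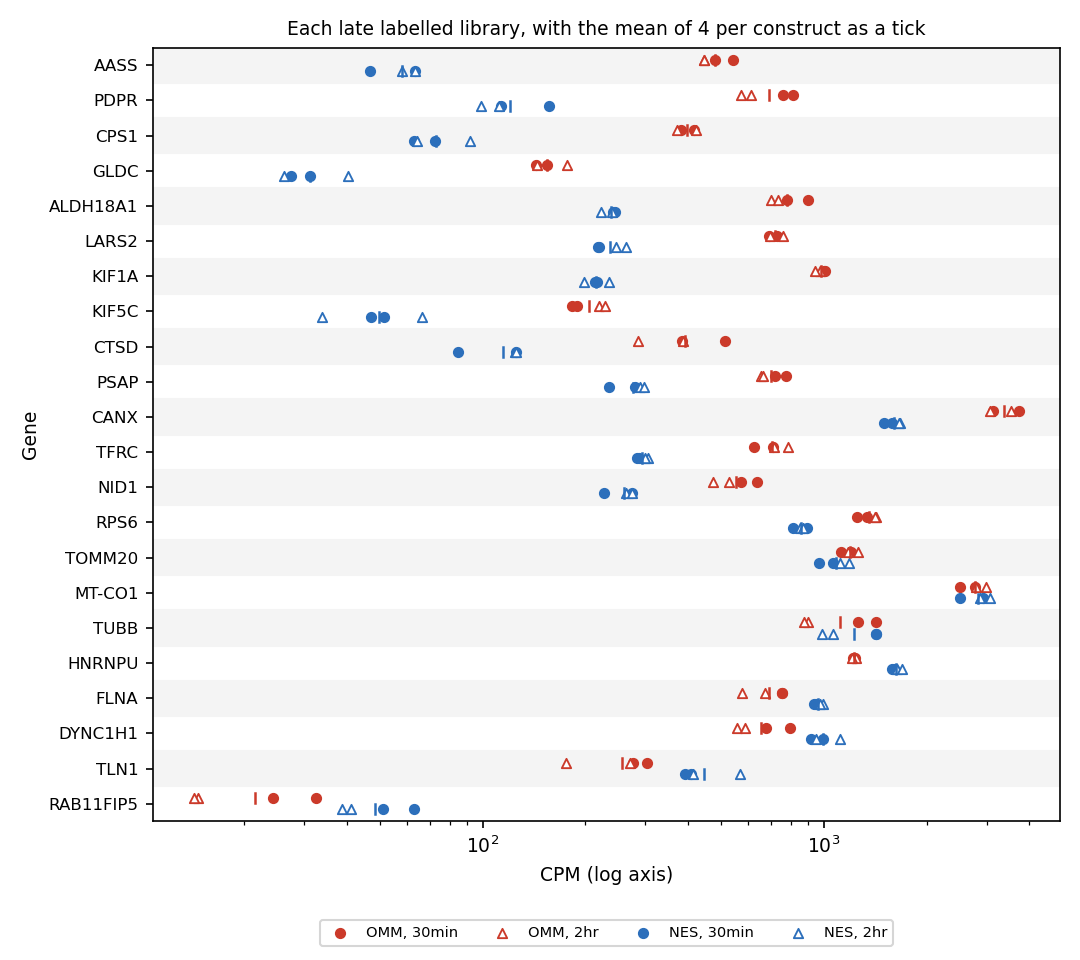
CPM (log axis) of chosen genes in each of the 8 late labelled libraries, OMM and NES in different colours, with filled circles for 30 min, open triangles for 2 h and ticks for the mean of 4 libraries. The OMM points of AASS (446 and 445 CPM at 2 h) lie clear of its NES points, while those of MT-CO1 and TOMM20 lie among the NES points.

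Several lists of proteins that enter the secretory route held many called genes. Over all genes tested 2.95% were called higher. Of 63 genes of ER folding and translocation, 33 were higher and 0 lower, with a median log2 fold change of 0.65. CANX, the lectin chaperone calnexin, measured 3142, 3721, 3534 and 3060 CPM in OMM and 1580, 1497, 1673 and 1662 CPM in NES libraries, without overlap (1.07, edgeR's adjusted p = 6.43e-07). RPN1 of the oligosaccharyltransferase (1.26), MAGT1 (1.12), CALU (1.04), SSR3 of the translocon (1.03) and the disulfide isomerase P4HB (1.01) followed. GANAB, the catalytic subunit of ER glucosidase II and named after its value was seen, averaged 1865 CPM in OMM and 599 CPM in NES libraries, a log2 fold change of 1.64 ± 0.10 (SE, n = 4 per construct; edgeR's adjusted p = 6.21e-08). HSPA5, the main ER chaperone of the HSP70 family, measured 810, 1031, 905 and 894 CPM in OMM against 573 to 622 CPM in NES libraries and had a smaller log2 fold change of 0.60.

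Lysosomal proteins had the highest median of all 33 lists, 0.82, with 23 of 50 genes higher and 0 lower. CTSD, the protease cathepsin D, measured 385, 512, 387 and 285 CPM in OMM and 84.7, 125, 125 and 126 CPM in NES libraries, a log2 fold change of 1.76 ± 0.172 (edgeR's adjusted p = 1.43e-05). PSAP, the precursor of the saposins, measured 719, 772, 654 and 662 CPM in OMM against 279, 235, 290 and 297 CPM in NES libraries (1.35). LIPA, which hydrolyses lysosomal lipids (1.44), the thioesterase PPT1 (1.37), the peptidase TPP1 (1.19) and the membrane protein LAMP2 (1.02) were also higher, and in none of these 6 genes did the constructs overlap.

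Of 50 secreted and matrix proteins, 18 were higher and 0 lower (median 0.78), led by SERPINH1, a collagen chaperone (1.70), the collagens COL4A2 (1.41), COL18A1 (1.35) and COL6A1 (1.06), the basement membrane protein NID1 (1.08) and the laminin chain LAMC1 (0.79). Of 95 plasma membrane proteins, 33 were higher and 0 lower (median 0.63). TFRC, the transferrin receptor, measured 622, 708, 784 and 714 CPM in OMM against 284, 287, 305 and 299 CPM in NES libraries (1.26). BSG (1.22), PTPRF (1.22), APP (0.88), APLP2 (0.86) and the lactate transporter SLC16A1 (0.85) showed smaller values in the same direction. Of 59 genes of sterol and fatty acid synthesis, 16 were higher and 0 lower (median 0.48). GPAM, an acyltransferase of the outer mitochondrial membrane, led them (1.47), ahead of the ER enzymes DHCR7 (1.11), PTDSS1 (1.07), the desaturase SCD (0.73) and HACD3 (0.68). Of the 39 tail-anchored proteins, which are inserted into membranes after translation, only STX8 was called by edgeR, and the median was -0.03.

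**Figure D3:**
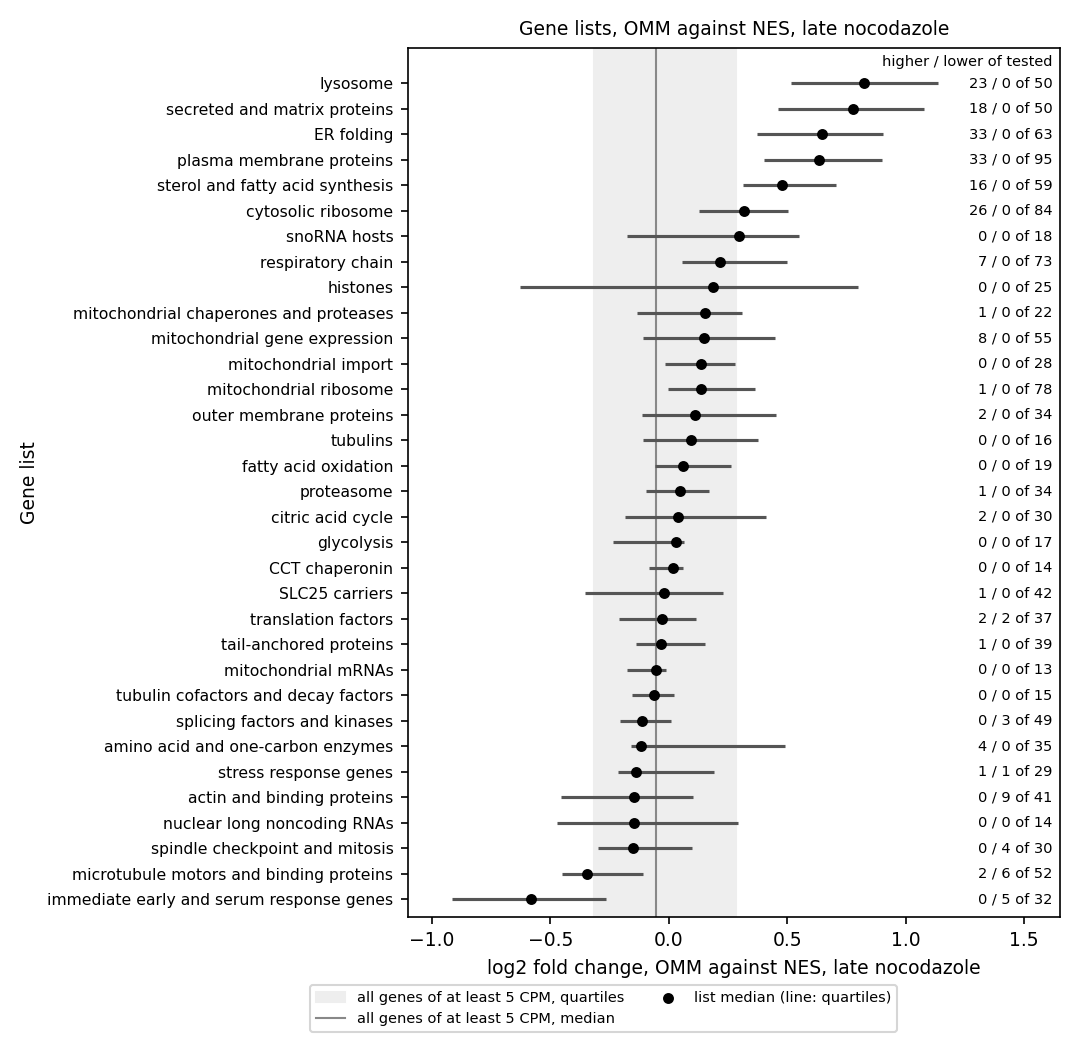
Median log2 fold change of OMM against NES for each gene list (points), with the quartiles as lines, and the numbers called higher and lower. The grey band marks the quartiles of all genes of at least 5 CPM (-0.32 to 0.29). The medians of lysosomal (0.82), secreted (0.78), ER folding (0.65) and plasma membrane proteins (0.63) lie to the right of the band.

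Among mRNAs of cytosolic proteins, some of those of the ribosome were higher in OMM. Of 84 genes, 26 were higher and 0 lower (median 0.32, between the 0.65 of ER folding genes and the -0.10 of all genes tested). RPS6 measured 1255, 1334, 1421 and 1410 CPM in OMM and 812, 894, 850 and 871 CPM in NES libraries, a log2 fold change of 0.66 ± 0.076 (edgeR's adjusted p = 6.66e-05). RPS18 (1.23), RPL18 (0.82), RPS3 (0.80) and RPLP0 (0.78) were also higher, and RPL5 measured 837 to 899 CPM against 610 to 671 CPM (0.43). Ribosomal protein genes have many processed pseudogenes, so the reads of single members are uncertain. Of 37 translation factors, 2 were higher, the poly(A)-binding protein gene PABPC1 (0.71) and the elongation factor gene EEF1A1 (0.33), and 2 were lower, the initiation factor genes EIF5B (-0.49) and EIF4G1 (-0.37). Glycolysis (17 genes) and the CCT chaperonin (14 genes) held 0 calls by edgeR, with 3 and 1 at an unadjusted p below 0.05 and 3 and 0 calls by DESeq2. The proteasome held 1 call of 34 genes, PSMA7 (0.82).

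Some mRNAs of the cytoskeleton and of mitosis were lower in OMM. Over all genes tested 0.998% were called lower, and 1.43% of those averaging 5 CPM or more. The coding genes called lower had a median level of 270 CPM, against 32.3 CPM for all coding genes tested. The part of level in the counts below was not tested. DYNC1H1, the heavy chain of cytoplasmic dynein, measured 797, 678, 558 and 588 CPM in OMM and 920, 996, 1113 and 950 CPM in NES libraries, a log2 fold change of -0.61 (edgeR's adjusted p = 0.00263). KIF11, the kinesin that separates spindle poles, measured 284, 297, 212 and 283 CPM in OMM against 394, 423, 450 and 358 CPM in NES libraries (-0.60). With MAP4 (-0.55), CKAP5 (-0.50), KIF5B and MAP1S (-1.32, named after its value was seen), 6 of the 52 microtubule motors and binding proteins were lower, and the median of the list was -0.35. Of 30 genes of the spindle checkpoint and mitosis 4 were lower and 0 higher: ANLN (-0.74), INCENP (-0.71), CENPE (-0.47) and CENPF (-0.46). CENPE was not called in 5 of the 8 fits that each left out 1 library.

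Actin-binding proteins gave 9 lower and 0 higher of 41 genes (median -0.14), where 0.998% of all genes tested were called lower. TLN1, which links integrins to actin, measured 303, 275, 175 and 270 CPM in OMM and 392, 408, 570 and 414 CPM in NES libraries (-0.80, edgeR's adjusted p = 0.00764). FLNA, the actin crosslinker filamin A, measured 754, 754, 576 and 672 CPM against 950, 935, 993 and 976 CPM (-0.49). EZR (-0.59), DIAPH1 (-0.52), MYH10 (-0.51) and ACTR2 (-0.41) were also lower without overlap of the constructs. The splicing proteins HNRNPU (-0.41), SON (-0.47) and RBM25 (-0.48) were the 3 lower genes of 49, and the chaperone gene HSP90AA1 (-0.32) was the lower one and the ferritin gene FTL (0.48) the higher one of 29 stress response genes. The 10 lower genes that the rule named by size were SLC9A3-AS1 (-1.48), RAB11FIP5 (-1.23), AMOTL2 (-1.15), RAB31 (-1.13), CDC16 (-1.07), BACH1 (-1.02), MAGI3 (-0.96), JUND (-0.96), ITSN2 (-0.90) and ZCCHC3 (-0.90). SLC9A3-AS1 is an antisense RNA, and since the strand setting of the counting is not given in the sources used here, its reads cannot be told apart from those of its partner gene.

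Some immediate early genes were lower in OMM, and JUN and ATF3 had higher levels at 2 h than at 30 min in both constructs. JUN measured 237 and 237 CPM at 30 min and 1141 and 1120 CPM at 2 h in OMM libraries, and 476, 370, 1558 and 1423 CPM in NES libraries. Each time separately, the OMM values lay below the NES values, a log2 fold change of -0.62 (edgeR's adjusted p = 0.00246). ATF3 showed the same layout, with 28.5, 42.3, 287 and 295 CPM in OMM against 56.7, 62.1, 435 and 403 CPM in NES libraries (-0.63). FOSB reached 88 and 77.7 CPM at 2 h in NES libraries and 7.7 and 12.2 CPM in OMM libraries. Over both times its log2 fold change was -2.08. The FOSB call was kept with the 2 h libraries alone but not with the 30 min libraries alone. The series holds no unlabelled nocodazole library of 2 h, so the FOSB values of that time could not be set beside a background. EGR1 was also lower (-1.22). With JUND, 5 of 32 tested immediate early genes were lower and 0 higher, with a median of -0.58. Of all genes tested, 0.998% were called lower. The change of level with time was not tested.

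Tubulin mRNAs gave no call between the constructs by edgeR. Levels of TUBB, TUBA1B and TUBB4B were lower at 2 h than at 30 min in both constructs, whereas TUBA1A measured 59.2, 59.5, 107 and 54.3 CPM in OMM and 60.1, 52.7, 35.4 and 40.5 CPM in NES libraries. TUBB measured 1424 and 1261 CPM at 30 min and 901 and 876 CPM at 2 h in OMM libraries, and 1422, 1426, 1067 and 991 CPM in NES libraries. TUBA1B measured 1234, 1233, 993 and 818 CPM in OMM and 1211, 1188, 960 and 1000 CPM in NES libraries, and TUBB4B 296, 297, 195 and 154 CPM against 298, 269, 154 and 189 CPM. In TUBB, TUBA1B and TUBB4B every 2 h library lay below every 30 min library, a difference in level that was not tested, and the log2 fold changes of OMM against NES were -0.15, -0.04 and 0.05. Of the 16 tested tubulin genes (alpha, beta, gamma, delta and epsilon) 0 were called by edgeR, with 2 at an unadjusted p below 0.05 and 1 by DESeq2. The tubulin cofactors gave 0 calls of 15, with 0 at an unadjusted p below 0.05 and 0 by DESeq2. ACTB, the actin gene often used as a reference, measured 1396 to 1634 CPM in OMM and 1638 to 1791 CPM in NES libraries (-0.14, edgeR's adjusted p = 0.386).

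The lists of noncoding and histone RNAs gave no call by edgeR, although some noncoding genes outside them were called. The nuclear long noncoding RNAs held 0 calls of 14 by edgeR (median -0.15), the hosts of small nucleolar RNAs 0 of 18 (median 0.30) and the histones 0 of 25 (median 0.19), with 0, 4 and 1 at an unadjusted p below 0.05 and 0, 3 and 1 called by DESeq2. MALAT1, an abundant RNA of nuclear speckles, measured 20.2 to 39.4 CPM in OMM and 21.8 to 26.8 CPM in NES libraries, and these ranges overlapped (0.46, edgeR's adjusted p = 0.593). Among the snoRNA hosts, SNHG5 lay higher in all 4 OMM libraries (72.2 to 87.1 CPM against 46.5 to 63.1 CPM) with a log2 fold change of 0.59 that did not pass the test (edgeR's adjusted p = 0.102).

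Coding sequences of the called genes were described from the same GENCODE transcripts, with no test. A hydrophobic window was counted where the mean Kyte-Doolittle hydropathy over 19 codons reached 1.6, a measure that marks signal peptides and membrane spans. Of 469 coding genes called higher, 348 (74.2%) held such a window and 195 (41.6%) held it within the first 40 codons. Over all 10515 coding genes of at least 5 CPM the shares were 31.1% and 9.87%. Of 164 coding genes called lower, 17.7% held a window anywhere and 1.22% within the first 40 codons. The lower genes were long: the median was 1048 codons, against 475 for the higher genes and 474 for all coding genes tested. Their median level was also high, 270 CPM, against 154 CPM for the higher genes and 32.3 CPM for all coding genes tested. Among all coding genes, the 6445 above the median length held 236 higher and 142 lower calls, and the 6475 others 233 and 22. The part of level in these counts was not tested. Of 312 genes in the matrix and inner membrane lists, the 23 called higher had a median of 710 codons and the 289 that were not called had 332. The median level was 140 CPM for the 23 and 50.2 CPM for the 289. Of the 23, 0 held a hydrophobic window in the first 40 codons, against 4 (1.38%) of the 289, and 8 (34.8%) held one anywhere, against 42 (14.5%). Split at the median length of 335.5 codons, 14 of the 156 longer genes and 9 of the 156 shorter ones were called higher, while the median log2 fold change was 0.07 for the longer and 0.19 for the shorter genes. The median level was 63.9 CPM for the longer and 45.0 CPM for the shorter genes, and its part in the calls was not tested.

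**Figure D4:**
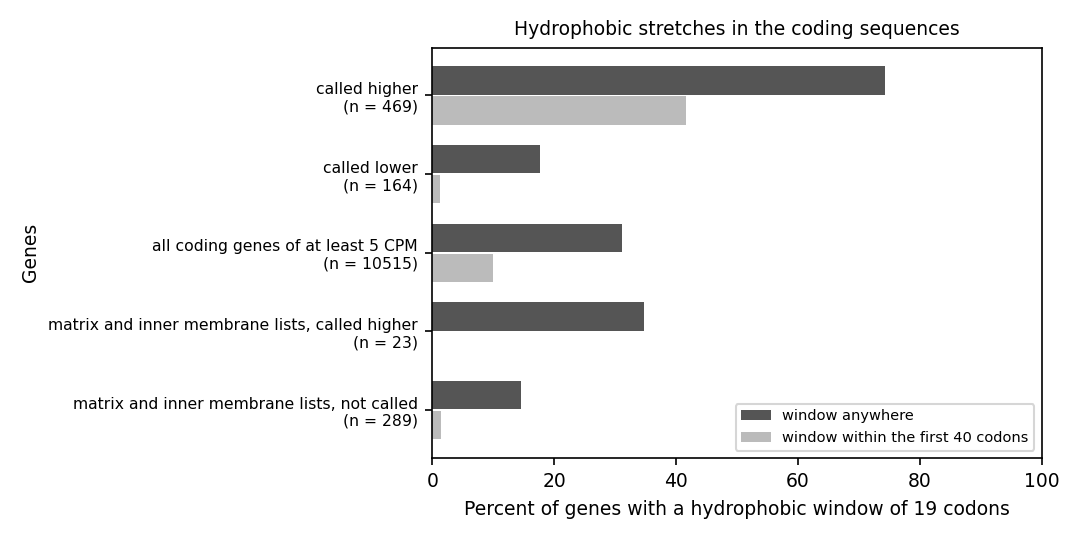
Percent of genes with a hydrophobic window of 19 codons anywhere in the coding sequence (dark bars) and within the first 40 codons (light bars), for called genes, all coding genes and the matrix and inner membrane lists. The dark bar is longest for genes called higher (74.2%) and reaches 31.1% for all coding genes of at least 5 CPM.

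The difference between constructs was then compared between times. Between 30 min and 2 h, 0 of 16627 genes changed their OMM to NES ratio by edgeR's interaction test (0% in each direction), with 954 at an unadjusted p below 0.05 and 166 called by DESeq2. Without the second OMM library of 2 h, 943 were called, without the first, 119, and without the second NES library of 2 h, 14. KIF1A had log2 fold changes of 2.25 at 30 min and 2.15 at 2 h, AASS 3.24 and 2.87, CTSD 2.12 and 1.42, and CANX 1.18 and 0.98.

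Between the early (3 to 9 min) and late libraries, 9 genes rose in their OMM to NES ratio and 202 fell, of 19154 tested (0.047% and 1.05%; edgeR's interaction test, adjusted p below 0.05). Of genes averaging 5 CPM or more, 8 (0.0694%) rose and 170 (1.47%) fell. Of those 170, 88 were still called higher at the late times, and 125 of their 166 coding genes (75.3%) held a hydrophobic window. Lysosomal genes gave 17 falls of 50, ER folding genes 18 of 63, and secreted proteins 10 of 51. PSAP changed by -0.81 on the log2 scale (adjusted p = 0.000393 by edgeR) and HSPA5 by -0.95. The matrix enzymes ALDH18A1 (-1.16, adjusted p = 1.29e-06 by edgeR), IARS2 (-0.79) and GLDC (-0.65) also fell. Of the other matrix enzymes shown above, AASS (-0.22), PDPR (-0.17) and LARS2 (-0.16) did not pass the test. KIF1A rose by 0.50 (adjusted p = 0.0494) and NNT, the transhydrogenase of the inner membrane, by 0.70 (adjusted p = 0.0299). NNT measured 241, 234, 269 and 295 CPM in late OMM libraries and 123, 145, 114 and 116 CPM in late NES libraries, so it was also higher at the late times (1.06). Without the first OMM library of 2 h, 107 genes rose and 685 fell. Without the second, 285 rose and 1466 fell. The number called in all was 445 without the second NES library of 2 h, and 232 to 360 without any one NES library of 3, 6 or 9 min.

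Medians of the secretory lists were already lower at 9 min. The median log2 fold change of lysosomal genes was 1.64 at 3 min, 1.76 at 6 min, 0.99 at 9 min, 0.90 at 30 min and 0.81 at 2 h. ER folding genes gave 1.22, 1.46, 0.85, 0.70 and 0.61 in the same order, secreted proteins 1.61, 1.45, 0.95, 0.87 and 0.79, and plasma membrane proteins 1.21, 1.30, 0.82, 0.79 and 0.58. The values at 9 min, an early time, were thus close to the late ones, and the replicate correlations of 0.78 and 0.82 at 9 min were also close to the late ones. The part of replicate agreement in the lower medians was not tested. Genes of mitochondrial gene expression had medians between 0.14 and 0.22 at all 5 times. Still, 3 of the 55 fell between early and late (1.05% of all genes tested did). The medians of outer membrane proteins lay between 0.08 and 0.15 and those of SLC25 carriers between 0.03 and 0.13. With each time fitted alone, members called higher in mitochondrial gene expression numbered 15, 21, 3, 4 and 2 in the same order. For outer membrane proteins they numbered 7, 12, 3, 2 and 0, and for SLC25 carriers 3, 10, 0, 0 and 0. Calls over all 13489 genes also became fewer, with 2190, 3165, 518, 338 and 34. Some other mitochondrial lists moved more. The respiratory chain gave 0.87, 0.38, 0.15, 0.25 and 0.23, and the mitochondrial ribosome 0.58, 0.27, 0.13, 0.22 and 0.19. The mRNAs of the mitochondrial genome gave 1.28, 0.19, -0.81, -0.12 and 0.03. The cytosolic ribosome gave 1.06, 0.47, 0.15, 0.29 and 0.37.

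**Figure D5:**
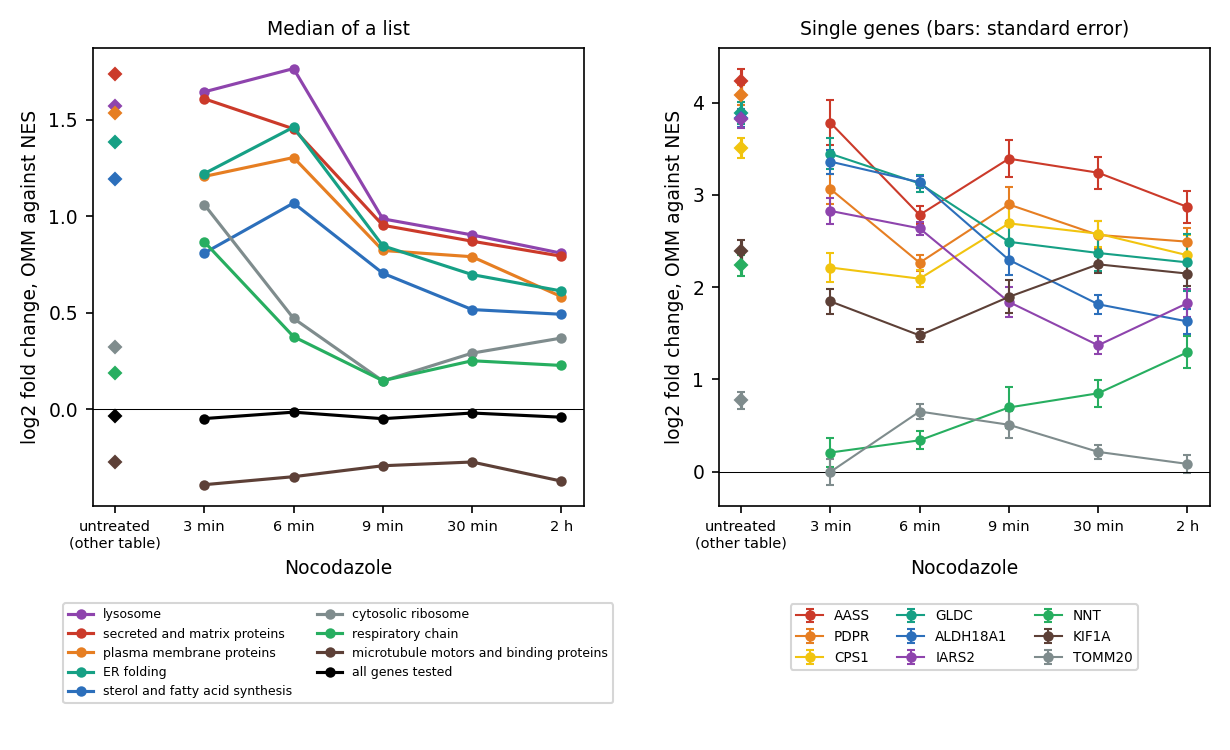
Log2 fold change of OMM against NES (vertical axis) without the drug and at each nocodazole time (horizontal axis), as medians of gene lists on the left and as single genes with standard errors on the right. Lines join the times of the nocodazole table, and diamonds mark the untreated libraries, which come from another table. The lysosomal median goes from 1.76 at 6 min to 0.81 at 2 h.

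Against untreated cells, 13 genes had a higher OMM to NES ratio after late nocodazole and 242 a lower one, of 18168 tested (0.0716% and 1.33%; edgeR's interaction test, adjusted p below 0.05). The untreated libraries come from another count table, so the drug and the set of libraries cannot be told apart. The lower ones included matrix enzymes: IARS2 changed by -2.17, ALDH18A1 by -2.06, GLDC by -1.51, PDPR by -1.50, LARS2 by -1.26 and AASS by -1.13, and all 6 were still called higher in late OMM libraries. ALDH1L2, a mitochondrial folate enzyme, had log2 fold changes of 2.39 without the drug and -0.13 late (difference -2.45, adjusted p = 0.000428 by edgeR), with 49.8 to 105 CPM in late OMM and 74.6 to 104 CPM in late NES libraries. PCCA, a subunit of propionyl-CoA carboxylase, had 2.62 and 0.00 (difference -2.56). Of genes averaging 5 CPM or more, 13 (0.113%) had a higher ratio and 241 (2.09%) a lower one. Of those 241, 127 were called higher late, and 189 of 240 coding genes (78.75%) held a hydrophobic window. Of the 13 that rose, TUBA1B changed by 0.62 and TUBB4B by 0.83, from log2 fold changes of -0.59 and -0.73 without the drug to -0.04 and 0.05. The number called was 255 in all and 128 and 74 without the first and the second untreated OMM library, 832 without the first OMM library of 2 h and 1258 without the second.

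Most late calls were also called in the other labelled sets, which had more calls of their own: 13.3% of genes were called higher and 12.1% lower early, and 12.3% higher and 4.94% lower without the drug. Of the 490 genes higher late, 484 (98.8%) were called higher early, which is 20.2% of the 2397 early calls among genes tested in both. Likewise 451 (92.0%) were called higher without the drug, or 21.9% of 2062. The median log2 fold change of the 490 was 0.85 late, 1.26 early and 1.57 without the drug, and 426 of them were smaller late than early. Since these genes were chosen by their late value, the medians are a description only. Of the 166 genes lower late, 138 (83.1%) were called lower early and 93 (56.0%) without the drug.

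No unlabelled libraries were available at 2 h of nocodazole. Those at 30 min showed what was captured without peroxide. They gave 0 calls between OMM and NES among 12767 genes by edgeR (0% in each direction), with 240 at an unadjusted p below 0.05 and 251 called by DESeq2. The unlabelled OMM libraries lacked a count for 3.06% and 16.4% of genes of at least 5 CPM. Of the 490 genes higher late, 208 of 489 with a value lay above 0 in the unlabelled comparison (median -0.10). Over all genes tested 5635 of 12662 did (median -0.12). For the 490 genes, the labelled difference at 30 min net of the unlabelled one had a median of 1.00 and lay above 0 in 459. Over all genes tested this median was 0.26, with 9208 of 15838 above 0. Of the 166 genes lower late, 44 lay above 0 in the unlabelled comparison (median -0.25), and 60 lay above 0 in the net difference (median -0.17). The 490 and the 166 genes were chosen with the same labelled libraries of 30 min that enter the net difference, so these counts and medians are a description only. Tested gene by gene, this net difference called 1 gene of 16223 (0.00616%), with 858 at an unadjusted p below 0.05 and 403 called by DESeq2. Without the first unlabelled OMM library, 441 genes were called in the unlabelled comparison and 2373 in the net one. Without the second, 1 and 97 were called, and without the first unlabelled NES library, 24 and 0.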

How the data were processed

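Raw counts per gene were deposited by the authors for poly(A)-selected, streptavidin-enriched RNA, and the libraries were made with a stranded kit, per the labels. The submitters' processing notes name Trimmomatic, STAR, HTSeq, SAMtools, bedtools and DESeq2 and the GRCh38 build, with no role or order, and the strand setting of the counting is not given in the sources used here. Of 60675 gene identifiers, 57055 were named from GENCODE 29 and 3620 had no name there. Genes were filtered by edgeR's filterByExpr, scaled by TMM and tested with edgeR 4.0.16 (quasi-likelihood, R 4.3.3) with time as a covariate, Benjamini-Hochberg adjusted over all genes tested, and interaction contrasts compared sets of libraries. A standard error is the log2 fold change divided by the root of its F statistic. DESeq2 1.42.0, other scaling, no filter, a replicate block and leaving out each library were alternatives. The test was also run on simulated counts. The simulation gave no single library extra missing counts, so it does not cover the sparse first OMM library of 2 h. Replicates are numbered in the labels, which do not say how each pair was grown, so p-values measure only the spread between these samples, which may be technical. No replicate pair was a duplicate.

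The comparison, the gene lists and the tests were chosen with earlier results of these data known. Among called genes of at least 5 CPM whose constructs do not overlap, the 15 with the largest and the 10 with the smallest log2 fold change were named. Whether called or not, up to 6 members per list with the smallest p and a set of landmark genes were also named. Each interaction added up to 5 genes per direction that its own test called. Features of coding sequences from GENCODE transcripts replaced the planned protein features, for which no protein table was used here. CPM values use TMM-scaled library sizes. A few genes and 1 coding sequence are not reported here.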

Additional observations from a re-analysis of the deposited data

Results flagged for a closer look

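Results whose OMM to NES ratio differed between sets of libraries, by a test of that difference (edgeR's interaction test, adjusted p below 0.05), deserve a second look. Between the early and late nocodazole libraries 9 genes rose and 202 fell. Of these, the matrix enzymes GLDC (-0.65 on the log2 scale), ALDH18A1 (-1.16) and IARS2 (-0.79) and the ER chaperones CANX (-0.65) and HSPA5 (-0.95) fell and were still higher in OMM libraries at the late times. The 5 largest rises were those of SGO2, a protector of centromere cohesion (0.84), SKAP2 (0.79), RNF219 (0.76), FAM168A (0.72) and NNT (0.70). SGO2 measured 69.7, 59.5, 109 and 75.5 CPM in late OMM libraries and 53.8 to 71.5 CPM in late NES libraries, so the constructs overlapped.

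The 5 largest falls, those of ZNF18 (-5.75), LBH (-5.57), MN1 (-5.53), RTL5 (-5.47) and HYAL3 (-5.42), were genes of low level. ZNF18, MN1, RTL5 and HYAL3 had 0 CPM in both OMM libraries of 2 h, and LBH had 0 CPM in both OMM libraries of 30 min but 8.42 and 5.49 CPM at 2 h. Their fitted values depend on these zeros and are no bounds.

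Between late nocodazole and untreated libraries 13 genes had a higher ratio and 242 a lower one, and the drug cannot be told apart from the set of libraries. The matrix enzymes AASS (-1.13), PDPR (-1.50), GLDC (-1.51), ALDH18A1 (-2.06), LARS2 (-1.26), IARS2 (-2.17), PCCA (-2.56) and ALDH1L2 (-2.45) were lower. So were TOMM20 (-0.57), CANX (-0.88), HSPA5 (-0.70) and SCD (-0.87). MN1 (-6.84), TRIM56 (-5.77) and INKA2 (-5.42) had 0 CPM in both OMM libraries of 2 h, so their values are no bounds either. The ratio was higher for TUBA1B (0.62) and, as the largest rises, PRPF19 (0.85), TUBB4B (0.83), SGTA (0.83), AHCY (0.78) and RCC1 (0.78), all of which had log2 fold changes of OMM against NES between -0.23 and 0.18 at the late times.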

How the results depend on the processing

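The limits are these: 2 replicates per construct and time, replicates that were less alike than at 3 and 6 min, and a sparse first OMM library of 2 h. The 490 higher and 166 lower calls of the late comparison became 1625 with DESeq2, 173 where an absolute log2 fold change of 1 or more was also required, 364 with the 30 min libraries alone, 36 with the 2 h libraries alone, 167 in a fit with all labelled and unlabelled libraries of the nocodazole table, and 708 to 1170 when 1 library was left out, the highest without the second OMM library of 2 h. RLE size factors (508 higher, 145 lower) and no filter on low counts (668 and 293) kept all 490 higher genes. No named gene reversed.

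The change between 30 min and 2 h gave 166 calls with DESeq2, 3 with no filter and 0 to 943 with 1 library left out. That between early and late gave 916, 473 and 173 to 1751, and that between late and untreated 679, 478 and 74 to 1258. The unlabelled comparison gave 251 with DESeq2, 2 with no filter and 0 to 441, the highest without the first unlabelled OMM library. The net difference gave 403, 64, 88 with all libraries, and 0 to 2373, again without that library. The causes of these changes were not tested.

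A replicate block changed the late calls to 530 higher and 208 lower (500 and 177 with a block by time), and of 111 named calls only ATP5MC1 was lost. The block gave 189 calls between early and late, 1 in the unlabelled comparison and 0 in the net one. The labels pair no samples across constructs. Deviations of same-numbered samples correlated at -0.0008 at 30 min and -0.0079 at 2 h. With replicates this unlike, such low values cannot show whether samples were paired. No block was fitted for late against untreated. Leaving out 1 library lost 1 to 7 of the 111 named calls, and beside ATP5MC1, STX8 and CENPE these were FTL, GPM6A, SLC9A3-AS1, JUND, ITSN2, ZCCHC3, RBM25, RAB11FIP5, CDC16, EIF4G1 and COX7C. The 30 min libraries alone kept 68 of the 111, the 2 h libraries 28 and the fit with all libraries 56.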
